A study of Mus musculus with 8 samples.

Results

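The genes described here encode the NF-κB transcription factors and the IκB proteins that hold them in check, and they were taken as the rows of the deposited table that carry the symbols Nfkb1, Nfkb2, Rel, Rela, Relb, Nfkbia, Nfkbib, Nfkbie, Nfkbiz and Bcl3. All 10 were found among the 23356 genes of the table, as 5 subunit genes, 3 genes of classical IκB proteins and 2 genes of atypical ones. They were measured by RNA-seq in bone marrow-derived dendritic cells (DCs), which are cells grown from mouse marrow with GM-CSF and IL-4. The cells came from WT mice and from Arhgef2-/- mice, both on a C57BL/6 background per the labels (C57BL/6N in the study's methods), and were left untreated or given ansamitocin-P3 (100 nM, 5 h), a maytansine-type drug that binds tubulin and takes microtubules apart. Arhgef2 encodes GEF-H1, an exchange factor for the GTPase RhoA that is bound to microtubules and released when they depolymerize, and the Arhgef2-/- cells (GEF-H1-/- DCs) are called knockout DCs below. The labels give no age and do not say whether untreated cells received the solvent of the drug. There were 8 libraries in 4 groups, with 2 per group. The table marks the knockout columns by single letters, c and s, which were read as control and stimulated, so the direction of every drug change in knockout DCs rests on that reading.

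Dimers of Rel proteins rest in the cytoplasm of unstimulated cells, bound by IκB. A stimulus activates the IκB kinase, IκB is degraded, and the dimer enters the nucleus, where it turns on cytokine, chemokine and survival genes along with the genes of its own inhibitors. In DCs this system accompanies maturation, in which p50 (from Nfkb1) with RelA or c-Rel serves the fast canonical branch, and p52 (from Nfkb2) with RelB the slower noncanonical one. Activity is set mainly on the proteins, by degradation and localization, so the mRNA levels given here are amounts of message and not of active factor.

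Values are FPKM, sequenced fragments normalised for transcript length and library size, which the authors computed with Cuffdiff. Cuffdiff combined the 2 libraries of a group into 1 value, so there is no SD and no n behind a value and no difference was tested against the spread between duplicates. The bounds of Cuffdiff's confidence interval are given in brackets as the error. Changes are log2 ratios of FPKM + 1, and the bracket after a change is a 95% interval propagated from those bounds. A gene was called when its log2 change was over 1 or under -1, and by a second rule when the intervals of both groups did not overlap. The 11397 genes that reached 1 FPKM in any group were compared in this way, and all 10 members were among them. "Rose" is used below only where a gene passed one of these rules.

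Arhgef2 was at 42.3 FPKM in untreated and 45.9 in treated WT DCs, and at 4.59 and 4.16 FPKM in the corresponding knockout DCs. All 10 dendritic cell markers searched, among them Itgax, Cd74 and Ccr7, had at least 1 FPKM in every group, with a summed level of 5790 FPKM in untreated and 7458 in treated WT DCs and of 4916 and 5381 in knockout DCs. Cd74 made up most of this sum, and single markers ran otherwise, with Itgax (102 against 129 FPKM), Batf3 (106 against 141) and Flt3 (2.10 against 2.63) higher in untreated knockout than WT DCs, and Ciita, Batf3 and Flt3 lower after the drug in WT DCs. The cultures also contained message of other cells. The 7 neutrophil markers found, which include S100a8 and S100a9 that monocytic cells make too, summed to 32422 and 38285 FPKM in WT and to 21832 and 22240 in knockout DCs. S100a8 carried most of that difference (19401 against 10856 FPKM in untreated cells), and S100a9 was at 10678 and 10004. Among untreated cells, Camp (189 against 15.0), Ngp (1707 against 702) and Ltf (399 against 145) were also lower in knockout DCs. Elane (20.7 against 45.9) and Mpo (26.4 against 63.1) were higher there. Those of mast cells and basophils summed to 185 and 191 in WT and to 338 and 324 in knockout DCs, those of macrophages to 230 and 175 in WT and to 299 and 269 in knockout DCs, with C1qa at 4.22 and 2.16 against 29.2 and 26.1, and those of T, B, NK and erythroid cells to at most 17.9, 6.999, 5.95 and 1.26. No marker of any of these lists was at 0 in every group, and all 4 erythroid markers stayed under 1 FPKM.

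Since κB sites are where these factors bind, and several of their own genes are known κB targets, the promoters were read for the κB consensus of 10 bases on both strands. The RefSeq promoter table (GRCm38.p6) gives windows of 300 bases, from 250 before to 50 after a transcript start, for 7 of the 10 members, namely Nfkb2, Rel, Rela, Nfkbia, Nfkbib, Nfkbie and Bcl3. A match was present in 5 of these 7 genes. Over the whole table, 5.14% of 27025 genes and 4.51% of 32851 windows contained one. Overlapping matches on either strand were merged, which left 8 distinct sites, 4 of them at Nfkb2, whose 3 annotated starts lie close together. They are printed 5′ to 3′ on the strand of the gene, as stretches of 30 bases with the match in capitals. The consensus was GGGRNWYYCC, where R is A or G, Y is C or T, W is A or T and N is any base. The sites of Bcl3, Nfkbia and Nfkb2 at chr19:46305449-46305478 matched on the opposite strand only, so their capitals show the reverse complement of the consensus.
Rel, chr11:23771041-23771070: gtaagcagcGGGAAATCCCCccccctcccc
Nfkb2, chr19:46304689-46304718: gatcgtcacGGGAATTCCCCccctcggggg
Nfkb2, chr19:46304716-46304745: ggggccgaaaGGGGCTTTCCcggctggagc
Nfkb2, chr19:46305449-46305478: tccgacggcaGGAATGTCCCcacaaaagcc
Nfkb2, chr19:46305695-46305724: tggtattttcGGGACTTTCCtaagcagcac
Nfkbia, chr12:55492657-55492686: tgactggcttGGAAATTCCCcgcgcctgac
Nfkbie, chr17:45555584-45555613: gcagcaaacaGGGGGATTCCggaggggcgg
Bcl3, chr7:19822734-19822763: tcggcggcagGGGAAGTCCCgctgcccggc

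The sites of Rel (92 to 82 bases before the start), Nfkbia (29 to 20 before) and Nfkbie (106 to 97 before) lay upstream of any annotated transcript. That of Bcl3 lay 3 to 12 bases into the transcript, in its 5′ UTR, and the sites of Nfkb2 fell within transcripts of that gene in GENCODE M21, 3 of them in annotated UTR. The windows of Rela and Nfkbib contained no match to this consensus. The upstream sequences of Rel, Nfkbia and Nfkbie are shown whole, because these genes carry a site in the same setting. Their log2 changes with the drug in WT DCs, given below, ran from 0.35 to 1.13, with overlapping intervals. Capitals mark the match, and the last base of the Nfkbia and Nfkbie stretches is the one before the transcript start.
Rel, chr11:23770971-23771219, minus strand: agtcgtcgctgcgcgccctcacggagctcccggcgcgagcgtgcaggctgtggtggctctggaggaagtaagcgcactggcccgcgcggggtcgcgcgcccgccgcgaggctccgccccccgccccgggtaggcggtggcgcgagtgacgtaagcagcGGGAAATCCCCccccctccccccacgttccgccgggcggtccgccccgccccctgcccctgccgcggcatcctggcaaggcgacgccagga
Nfkbia, chr12:55492648-55492897, minus strand: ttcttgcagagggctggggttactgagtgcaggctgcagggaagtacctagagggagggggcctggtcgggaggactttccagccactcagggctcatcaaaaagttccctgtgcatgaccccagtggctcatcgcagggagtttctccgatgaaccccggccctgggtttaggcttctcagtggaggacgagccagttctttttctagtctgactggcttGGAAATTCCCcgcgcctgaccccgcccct
Nfkbie, chr17:45555450-45555699, plus strand: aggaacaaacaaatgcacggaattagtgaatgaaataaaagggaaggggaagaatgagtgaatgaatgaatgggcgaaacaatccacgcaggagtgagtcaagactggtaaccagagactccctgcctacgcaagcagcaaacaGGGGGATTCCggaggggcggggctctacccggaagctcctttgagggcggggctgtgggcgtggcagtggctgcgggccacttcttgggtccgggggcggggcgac

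**Figure D1:**
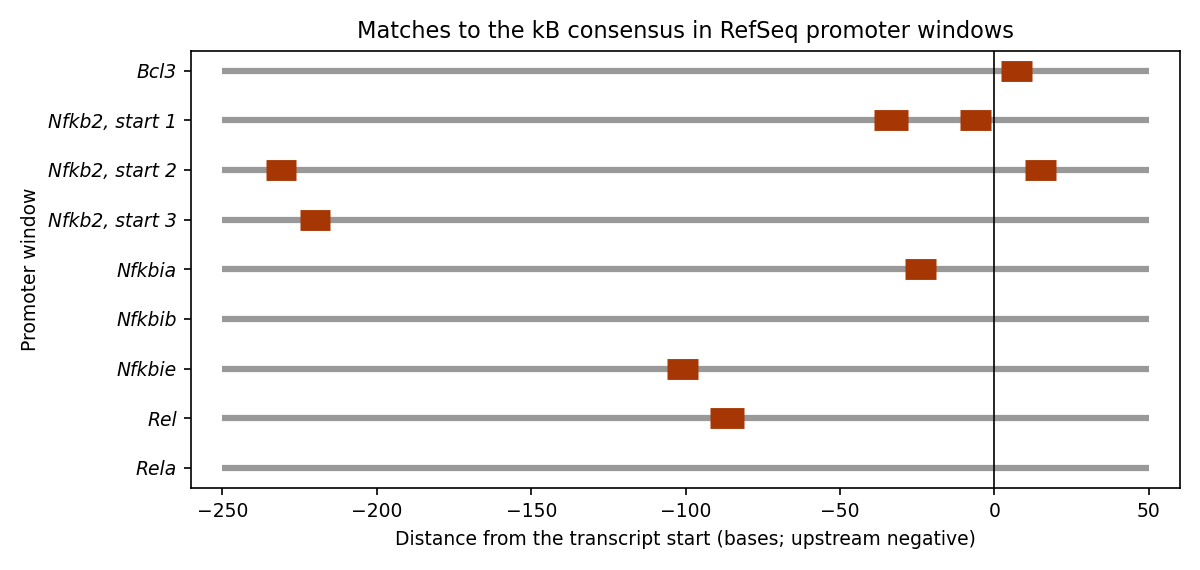
Positions of matches to the κB consensus (red blocks) in the 300-base RefSeq promoter windows (grey bars) of 7 members, by distance in bases from the transcript start (vertical line, upstream negative). Nfkb2 has a window for each of its 3 starts, so the site near the second start is drawn again in the third window, and the windows of Rela and Nfkbib hold no block.

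All 10 messages had a higher value in WT DCs after ansamitocin-P3, and 6 of them rose past the intervals that Cuffdiff gives. Of the 11397 tested genes, 5710 had a higher value after the drug. The median log2 change of the 10 genes was 0.76, against 0.00 over all tested genes. Over 1 were the changes of Rela, Rel, Nfkbib and Nfkb1, which is 4 of 10 members where 3.66% of all tested genes rose this far. By the second rule 6 of 10 rose, these 4 with Nfkb2 and Nfkbiz, where 9.19% of all tested genes did. The count over 1 depends on the scale of the columns. Total FPKM was higher in treated WT DCs (739523) than in untreated ones (609360), and when the columns were rescaled to a common sum the median of all tested genes moved to -0.24, no member passed 1, and the median of the members was 0.53. That rescaling also turned the split of all called genes in WT DCs from 417 higher and 146 lower to 260 higher and 418 lower.

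In knockout DCs the values after the drug lay closer to the untreated ones. The median log2 change of the 10 genes was 0.35, against -0.01 over all tested genes. Of the 10, 9 were higher after the drug and Bcl3 was lower, where 5420 of the 11397 tested genes were higher. No member passed 1, where 0.807% of all tested genes did, and 2 of 10, Rel and Rela, rose by the second rule, against 2.75% of all tested genes. The change was smaller in knockout than in WT DCs for all 10 members, with a median difference of -0.47 between the log2 changes. Of all tested genes, 51.6% had the smaller value in knockout DCs, but these include genes that were lower after the drug in WT. Among the 1416 tested genes with a WT change over 0.5, the median knockout share of that change was 0.395. A smaller change in knockout DCs was thus also seen in such genes and cannot be called particular to the members. These genes were selected on the WT change, which is the divisor of the share. Error in the WT change therefore lowers their share, and 0.395 is only a rough comparison. After rescaling to a common sum the members' median difference between the changes was -0.27, while that of all tested genes moved from -0.01 to 0.20. The difference of Nfkbia turned to 0.15, with the larger value in knockout DCs, and was still below the median of all tested genes. The propagated interval of the difference lay below 0 for 2 of 10 members, Nfkb1 and Bcl3, and for 4.77% of all tested genes. In bulk RNA a smaller number of responding cells and a smaller response per cell cannot be told apart.

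**Figure D2:**
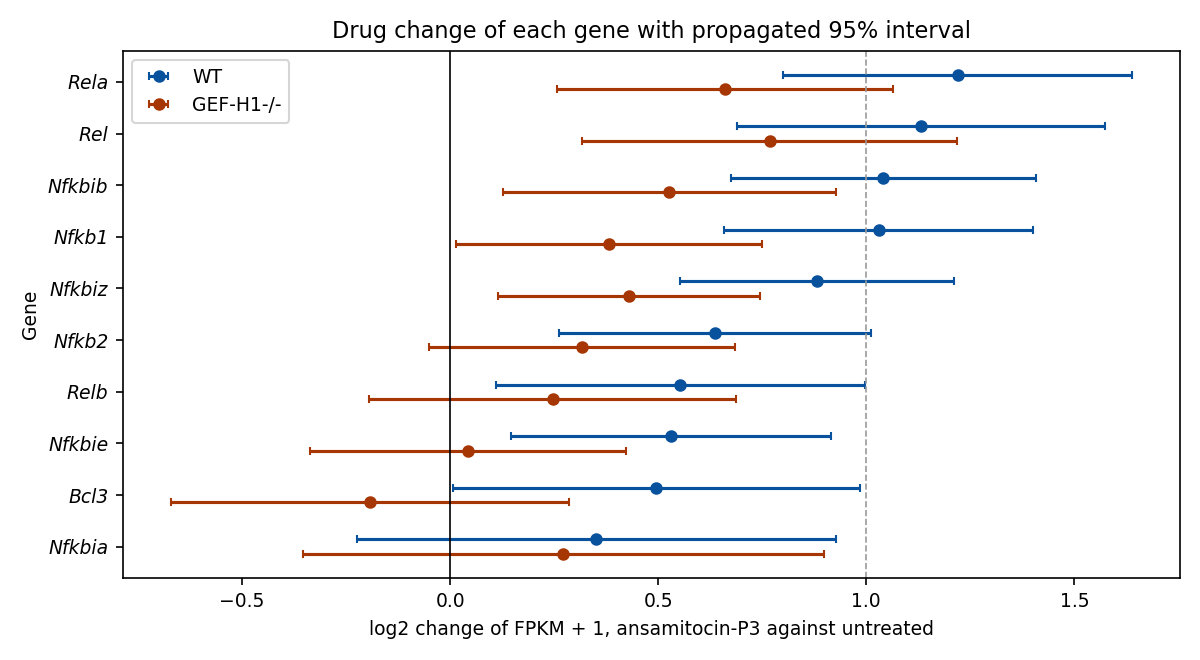
Log2 change of FPKM + 1 between ansamitocin-P3-treated and untreated DCs for each gene (points) in WT (blue) and knockout (red) cells, with the 95% interval propagated from Cuffdiff's bounds (bars), ordered by the WT value. Every blue point lies to the right of its red point, 4 blue points and no red point lie past the dashed line at 1, and the blue and red intervals of every gene overlap.

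Nfkb1 encodes p105 and, from it, p50, the subunit that binds DNA but has no activation domain of its own. It lies on chr3:135584655-135691547 (GRCm38) and was the most abundant member in 3 of the 4 groups. Its level was 111 FPKM (91.2 to 132) in untreated and 228 (186 to 271) in treated WT DCs, and 95.3 (78.0 to 113) and 125 (102 to 147) in knockout DCs. The treated WT group stood apart from the other 3 groups, which overlapped one another. The log2 change was 1.03 (0.66 to 1.40) in WT and 0.38 (0.01 to 0.75) in knockout DCs, and the difference between these changes was -0.65 (-1.17 to -0.13). As a share of the WT change, 37.1% was seen in knockout DCs, the smallest share among the subunits.

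Rela encodes RelA (p65), the main activating partner of p50, and had the largest WT change of the 10 with 1 FPKM added, though not as a plain ratio of FPKM, where Nfkbiz was ahead (2.63 against 2.37). Its level was 30.3 FPKM (24.3 to 36.4) in untreated and 72.0 (56.1 to 87.6) in treated WT DCs, and 31.2 (24.9 to 37.6) and 49.97 (39.5 to 59.8) in knockout DCs. Untreated and treated cells were apart in each genotype, while the treated groups of WT and knockout DCs overlapped. The log2 change was 1.22 (0.80 to 1.64) in WT and 0.66 (0.26 to 1.06) in knockout DCs, with a difference of -0.56 (-1.14 to 0.02) between them.

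Rel encodes c-Rel, an activating subunit that is found mostly in blood cells and drives interleukin genes in DCs. Its level was 29.2 FPKM (22.5 to 35.9) in untreated and 65.2 (51.2 to 79.0) in treated WT DCs, and 19.7 (15.1 to 24.3) and 34.2 (26.4 to 41.9) in knockout DCs. Treated knockout DCs therefore overlapped untreated WT DCs and lay below treated WT DCs. The changes were 1.13 (0.69 to 1.57) and 0.77 (0.32 to 1.22) on the log2 scale, so that 67.9% of the WT change was seen in knockout DCs. This was the largest share among the subunits, but the shares carry no error. The difference between the changes was -0.36 (-0.995 to 0.27), an interval that overlapped that of Nfkb1. Rel was also the member with the largest difference between untreated genotypes, -0.55 (-1.003 to -0.09) in knockout relative to WT DCs, although the intervals of the groups themselves overlapped.

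Nfkb2 and Relb, the pair of the noncanonical branch, had smaller WT changes than the other 3 subunits. Nfkb2, whose product p100 both retains RelB in the cytoplasm and yields p52 when processed, was at 63.8 FPKM (52.2 to 75.5) in untreated and 99.7 (80.8 to 119) in treated WT DCs, and at 55.4 (45.2 to 65.5) and 69.2 (56.7 to 81.8) in knockout DCs. It rose in WT DCs by the second rule, with a log2 change of 0.64 (0.26 to 1.01), and had a value of 0.32 (-0.05 to 0.68) in knockout DCs, where the intervals overlapped. Relb was at 41.5 FPKM (32.5 to 50.3) and 61.4 (46.2 to 74.3) in WT and at 39.6 (30.8 to 47.8) and 47.2 (36.4 to 57.9) in knockout DCs. Its 4 intervals all overlapped, so that no group was apart from another by the second rule. The log2 changes were 0.55 (0.11 to 0.997) and 0.25 (-0.19 to 0.69), and the propagated interval of the WT change lay above 0. The table gives Nfkb2 and Psd the same locus, but Psd was at 1.55 to 2.94 FPKM.

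Nfkbia encodes IκBα, the inhibitor that is degraded first and then made anew under NF-κB itself, and its WT change was the smallest of the 10. Its level was 101 FPKM (72.2 to 129) in untreated and 129 (91.99 to 166) in treated WT DCs, and 103 (69.8 to 136) and 124 (87.7 to 161) in knockout DCs. All 4 intervals overlapped, and the log2 changes were 0.35 (-0.22 to 0.93) and 0.27 (-0.35 to 0.90). These intervals were wide, at 56.5% to 64.5% of the value, whereas those of the 5 subunits ran from 36.2% to 46.8%. Cuffdiff placed Nfkbia in 1 locus with Psma6, Ppp2r3c, 1110008L16Rik and Mir1198, of which Psma6 (207 to 219 FPKM) was the more abundant. Nfkbia itself lies at chr12:55489410-55492647.

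Nfkbib, which encodes IκBβ, an inhibitor with slower turnover, was the inhibitor with the largest WT change. It was at 26.8 FPKM (21.9 to 31.8) in untreated and 56.3 (46.0 to 66.6) in treated WT DCs, and at 24.8 (19.7 to 29.98) and 36.2 (29.0 to 43.3) in knockout DCs. Treated WT DCs lay above all other groups, and the knockout groups overlapped only at the edge of their intervals. The log2 changes were 1.04 (0.67 to 1.41) and 0.53 (0.13 to 0.93). The added 1 FPKM matters here, because with 5 FPKM added instead the WT value was 0.94 and under the threshold.

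Nfkbie encodes IκBε, which preferentially holds c-Rel and RelA. It was at 26.9 FPKM (21.8 to 32.1) and 39.4 (31.5 to 47.1) in untreated and treated WT DCs, which overlapped slightly, and at 24.4 (19.7 to 29.1) and 25.2 (20.3 to 30.1) in knockout DCs. The log2 change was 0.53 (0.15 to 0.92) in WT and 0.04 (-0.34 to 0.42) in knockout DCs, so that 8.14% of the WT change was seen in knockout DCs. Treated knockout DCs lay below treated WT DCs. Of the 2 classical inhibitor genes with a κB match upstream of the start, Nfkbia thus had nearly equal values in both genotypes and Nfkbie had its higher value in treated WT DCs alone among the 4 groups, although the interval of the difference between the changes included 0 for each (-0.93 to 0.77 and -1.03 to 0.05).

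The atypical IκB proteins work in the nucleus, where IκBζ (from Nfkbiz) assists p50 at a subset of inflammatory genes such as Il6 and Lcn2, and Bcl-3 binds homodimers of p50 or p52. Nfkbiz was the rarest message, at 1.07 FPKM (0.75 to 1.39) and 2.81 (2.18 to 3.45) in untreated and treated WT DCs and at 1.18 (0.86 to 1.51) and 1.94 (1.47 to 2.40) in knockout DCs. It rose in WT DCs, with a log2 change of 0.88 (0.55 to 1.21), and had a value of 0.43 (0.11 to 0.74) in knockout DCs, where the intervals overlapped. Because 1 FPKM was added to a level near 1, these values understate its change, and the plain ratio of FPKM was 2.63 in WT and 1.64 in knockout DCs, the former the largest of the 10.

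Bcl3 was at 18.1 FPKM (13.6 to 22.3) and 26.0 (18.4 to 32.1) in untreated and treated WT DCs and at 16.7 (12.3 to 20.6) and 14.5 (10.5 to 17.7) in knockout DCs. It was the member whose values ran in opposite directions, with a log2 change of 0.50 (0.01 to 0.99) in WT and -0.19 (-0.67 to 0.28) in knockout DCs. Untreated and treated cells overlapped in each genotype, while treated knockout DCs lay below treated WT DCs. The difference between the changes was -0.69 (-1.37 to -0.0045), the largest of the 10, and its upper bound lay at the edge of 0.

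**Figure D3:**
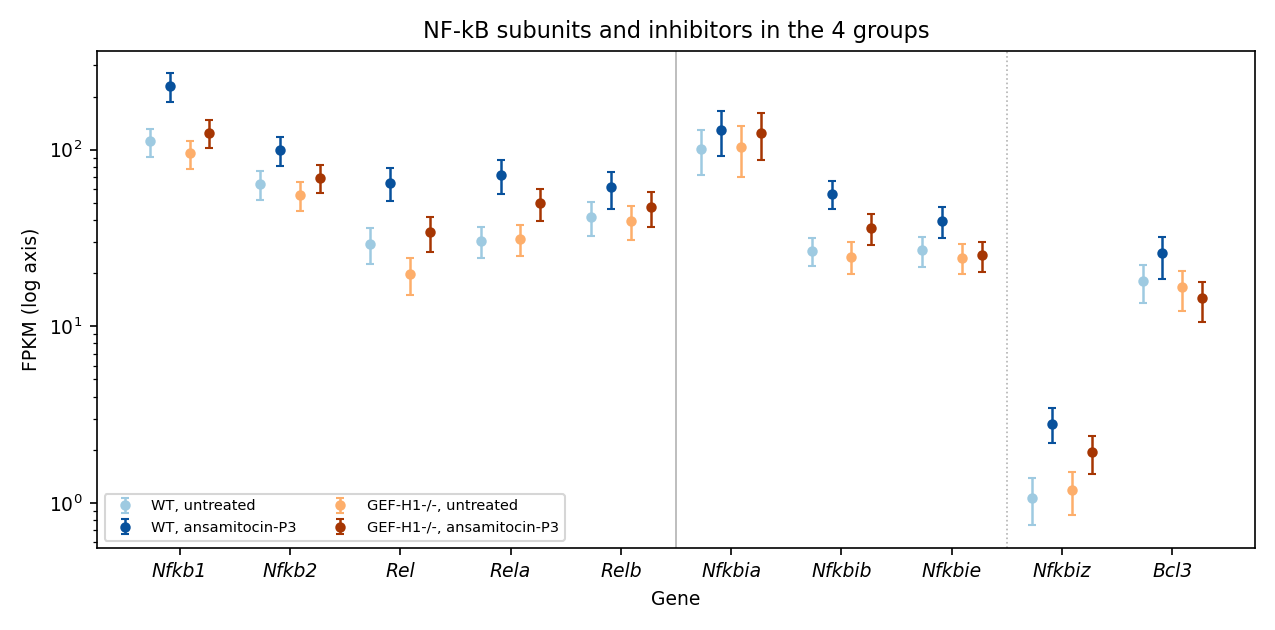
FPKM (log axis) of the 10 genes in the 4 groups, with Cuffdiff's interval (bars). The solid line separates subunits from inhibitors and the dotted line classical from atypical inhibitors. Treated WT DCs (dark blue) hold the highest value of each gene, Nfkb1 reaches 228 FPKM there, and Nfkbiz stays under 3 FPKM in every group.

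Before treatment 7 of the 10 genes were lower and 3 higher in knockout than in WT DCs, where 5934 of the 11397 tested genes were lower. The median log2 difference of the 10 genes, knockout relative to WT, was -0.11. The largest was that of Rel (-0.55, -1.003 to -0.09), whose propagated interval lay below 0. The intervals were apart for 0 of 10, which is close to the 1.88% of all tested genes that were lower in knockout DCs by this rule. After the drug all 10 were lower in knockout than in WT DCs, as were 6029 of the 11397 tested genes. The median log2 difference of the 10 was -0.57, against -0.03 over all tested genes. The intervals were apart for 5 of 10, where 6.73% of all tested genes were lower by this rule. These were Rel (-0.91, -1.35 to -0.47), Nfkb1 (-0.87, -1.24 to -0.50), Bcl3 (-0.80, -1.30 to -0.31), Nfkbie (-0.62, -1.01 to -0.23) and Nfkbib (-0.62, -1.005 to -0.24). The comparison shares its groups with the drug changes above and is not a second measurement of them. After rescaling to a common sum the median of the members was -0.32, that of all tested genes 0.20, and Nfkbia turned to 0.21. The summed neutrophil, mast cell and macrophage markers given above also differed between the genotypes, and their part in these values was not tested.

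**Figure D4:**
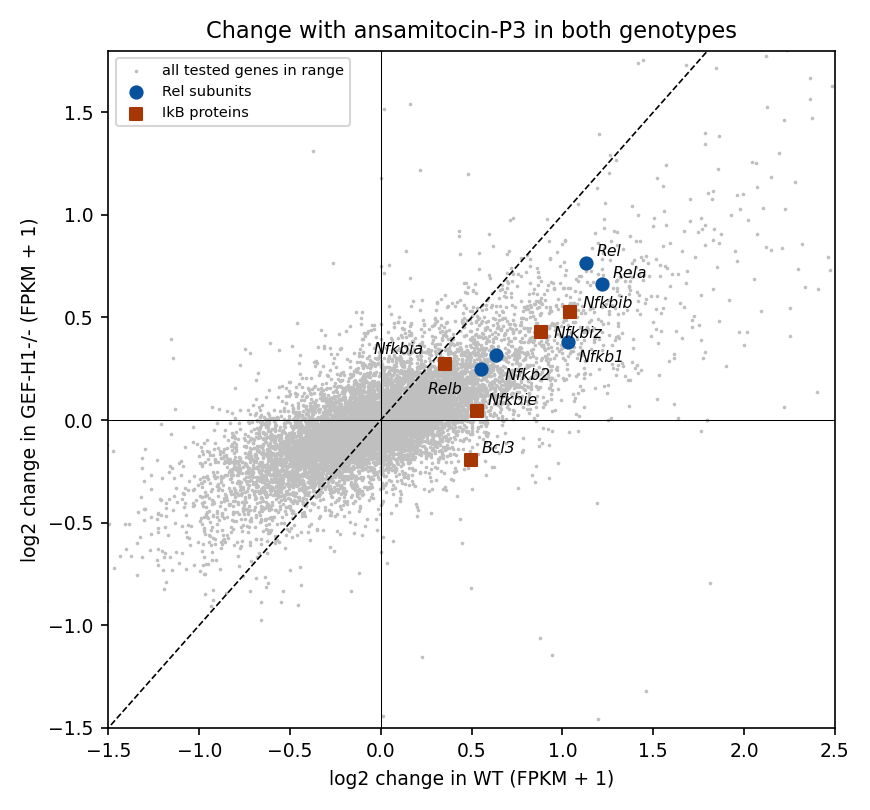
Log2 change with ansamitocin-P3 in WT (x axis) and knockout DCs (y axis) for tested genes within the axes (grey), subunits (blue circles) and IκB genes (red squares). All 10 members lie below the dashed line of equal change and right of 0 in WT, and Bcl3 alone lies below 0 in knockout DCs.

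The share of the WT change seen in knockout DCs had a median of 0.493 over the 10 members and ran from -0.389 (Bcl3) over 0.081 (Nfkbie) to 0.772 (Nfkbia), the ends of which rest on small WT changes. The other 7 lay between 0.371 and 0.679. For comparison, the median share was 0.395 over all 1416 tested genes with a WT change over 0.5, with quartiles of 0.232 and 0.566. Between these quartiles lay 6 of the 10 members.

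The order of the messages by FPKM, which is corrected for length and so allows genes to be compared, was led by Nfkb1, Nfkbia and Nfkb2 in every group. In untreated WT DCs, Nfkb1 (111), Nfkbia (101) and Nfkb2 (63.8) were followed by Relb (41.5), Rela (30.3), Rel (29.2), Nfkbie (26.9), Nfkbib (26.8), Bcl3 (18.1) and Nfkbiz (1.07). Intervals of neighbours overlapped except between Nfkb2 and Relb and between Bcl3 and Nfkbiz. In treated WT DCs, Nfkb1 stood clear of Nfkbia, Rela (72.0) and Rel (65.2) came ahead of Relb (61.4), and these 3 overlapped. In untreated knockout DCs, Rel (19.7) was eighth in the order, below Nfkbib and Nfkbie, but overlapped Nfkbie (24.4).

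The 5 subunit messages together came to 276 FPKM in untreated and 527 in treated WT DCs, and to 241 and 325 in knockout DCs. Nfkb1 made up 40.3% of this sum in untreated and 43.4% in treated WT DCs, and 39.5% and 38.3% in knockout DCs. The share of Rela with the drug went from 10.99% to 13.7% in WT and from 13.0% to 15.4% in knockout DCs, and that of Rel from 10.6% to 12.4% and from 8.15% to 10.5%. The noncanonical pair had the opposite course, with Nfkb2 at 23.1% and 18.9% in WT and at 23.0% and 21.3% in knockout DCs, and Relb at 15.0% and 11.7% in WT and at 16.4% and 14.5% in knockout DCs. The ratio of Nfkb2 to Relb, in contrast, stayed between 1.40 and 1.63 over the 4 groups, with overlapping intervals.

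The 3 classical inhibitor messages summed to 154 and 224 FPKM in WT and to 152 and 186 in knockout DCs. Their ratio to the subunit sum was 0.559 in untreated and 0.426 in treated WT DCs, and 0.631 and 0.572 in knockout DCs. The ratio of Nfkbia to Rela was 3.32 (2.35 to 4.69) in untreated and 1.79 (1.25 to 2.56) in treated WT DCs, and 3.30 (2.25 to 4.83) and 2.49 (1.74 to 3.57) in knockout DCs. The WT value was lower after the drug, but the intervals overlapped. The ratio of Nfkbib to Nfkbia was 0.267 (0.190 to 0.374) in untreated and 0.437 (0.311 to 0.614) in treated WT DCs. In knockout DCs it was 0.241 (0.164 to 0.354) and 0.291 (0.204 to 0.415), and the intervals overlapped in each genotype. Ratios within a group do not depend on the scale of its column.

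**Figure D5:**
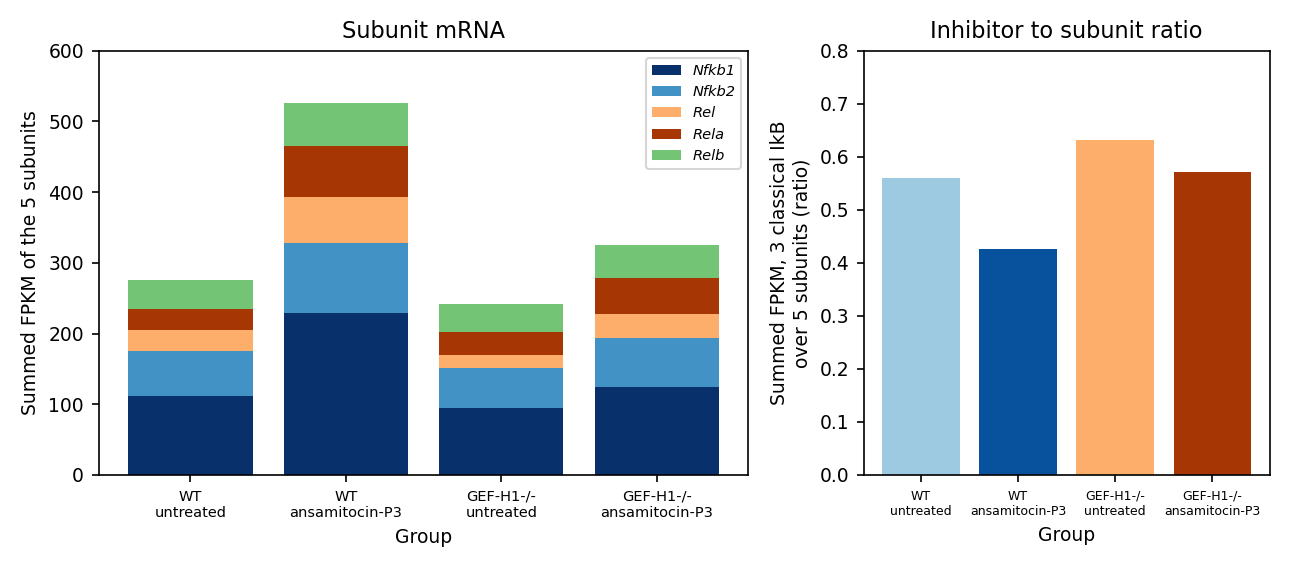
Left, summed FPKM of the 5 subunit genes in the 4 groups, stacked by gene. Right, summed FPKM of Nfkbia, Nfkbib and Nfkbie over that sum. The sum is highest (527) and the ratio lowest (0.426) in treated WT DCs, and the deposited values give no error for either sum.

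Other genes of the pathway were counted in lists written with earlier results of these data known. Of all tested genes, 3.66% were over 1 in WT and 0.807% in knockout DCs, and 9.19% and 2.75% were higher by the second rule. In the reverse direction, 1.28% were under -1 in WT and 0.272% in knockout DCs, and 7.58% and 0.956% were lower by the second rule. No member was called in that direction. The counts below are to be read beside these shares. Among 12 genes of negative feedback, such as deubiquitinases, TNIP proteins and the RNase Zc3h12a, the drug changes had a median of 0.65 in WT and 0.21 in knockout DCs. Of these 12, 2 were over 1 in WT, Rnf11 (1.45, against 0.71 in knockout DCs), a partner of A20, and Otud7b (1.07 against 0.57), a deubiquitinase of TRAF3, and none in knockout DCs. By the second rule 6 were higher in WT and 3 in knockout DCs, and none was lower in either. Tnfaip3, which encodes A20 itself, was at 15.6 and 20.5 FPKM in WT and 15.2 and 17.7 in knockout DCs and is named after its values were seen.

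The kinase and ligase genes that act on IκB protein had small values. Over the 3 subunits of the IκB kinase and 5 genes of the ligase complex the median change was 0.22 in WT and 0.10 in knockout DCs, and none of these 8 passed 1 or -1. By the second rule 1 gene was higher in each genotype, against 9.19% of all tested genes in WT and 2.75% in knockout DCs. It was Fbxw11, named after its values were seen, which encodes an F-box protein that recognizes phosphorylated IκB and was at 22.0 FPKM in untreated and 38.6 in treated WT DCs, and at 21.2 and 31.1 in knockout DCs. Of the 10 genes of the noncanonical pathway, among them Map3k14 (NIK), Traf2 and Traf3, none was called by either rule, and the medians were 0.25 and -0.01.

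Of 12 genes of other IκB proteins and further regulators of Rel proteins, 10 were tested, none passed 1 or -1, and the medians were 0.07 and 0.01. By the second rule 1 was higher and 1 lower in WT DCs, near the 9.19% and 7.58% of all tested genes, and none in knockout DCs. Both are named after their values were seen. Nfkbid, the gene of a further atypical IκB, had a log2 change of 0.72 in WT and 0.21 in knockout DCs, and Pdlim2, which encodes a ligase that ends RelA activity in the nucleus, -0.70 and -0.25. The 7 coactivator genes, among them Crebbp and Ep300, had medians of 0.10 and 0.21, with no call by either rule.

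Of 30 classical target genes, 28 were tested, with a median change of 0.64 in WT and 0.35 in knockout DCs. There were 11 over 1 in WT and 7 in knockout DCs, and none under -1. By the second rule 13 were higher and 2 lower in WT, and 11 higher and 0 lower in knockout DCs. The largest WT changes were those of Cxcl3 (4.87), Cxcl2 (3.78), Il1b (3.21), Il6 (2.67), Il1a (2.48) and Ccl4 (2.06), against 1.76, 1.497, 1.26, 1.59, 0.73 and 1.25 in knockout DCs. These 6 were picked by their WT change, so their place above every member in WT DCs follows from that choice. The WT median of all 28, 0.64, was below the members' 0.76. In knockout DCs the 6 also lay above every member, except Il1a, which was below Rel (0.77).

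The genes most like the members in pattern were sought among 7716 other genes with at least 5 FPKM in every group, by the Euclidean distance of 3 differences (drug in WT, drug in the knockout, untreated genotypes) from the members' medians of 0.76, 0.35 and -0.11. The 8 nearest were Diap1, Anxa7, Stx12, Rab22a, Fbxo11, Riok3, Bcl2l1 and Dnase1l1, at distances from 0.03 to 0.07, while the members themselves lay at 0.16 to 0.71. Diap1, a formin that acts below RhoA, was at 84.8 and 142 FPKM in WT and at 78.3 and 98.4 in knockout DCs. Bcl2l1, a κB target that encodes the survival protein Bcl-xL, was at 28.6 and 47.4 and at 27.1 and 34.5 FPKM.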

How the data were processed

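RNA of 8 libraries of cultured DCs (4 groups of 2) was made into strand-specific poly(A) libraries and sequenced as paired ends by the authors. The authors computed FPKM with Cuffdiff (version 1.05 and build mm10 per the submitters' processing notes), which gave 1 value per gene and group with lower and upper confidence bounds. The aligner and annotation behind this table are not given in the sources used here. Columns were matched to groups by their names, those of WT cells by elimination and those of knockout cells by reading the letters c and s as control and stimulated, and 0 columns of per-sample values were left unused. FPKM do not keep fragment numbers, so the depth of the libraries is unknown and limits precision only through Cuffdiff's bounds.

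Of 23356 genes, 107 without a status of OK in Cuffdiff were left out, and 11397 that reached 1 FPKM in any group were tested. Log2 ratios of FPKM + 1 were computed with pandas 2.3.3. Errors were propagated from the bounds, taking groups as independent. The arithmetic was checked on simulated data whose bounds were built from their known error. That check cannot show whether Cuffdiff's bounds cover the spread between duplicates. No significance test was possible on combined values. All 10 members are named. In the lists, genes past the threshold of 1 are named, at most the 6 largest. Members and lists were chosen with earlier results of these data known. Promoter sequences are from RefSeq (GRCm38.p6), and gene coordinates from GENCODE M21 (GRCm38). Alternatives were other pseudocounts, filters, column scales and call rules.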

Additional observations from a re-analysis of the deposited data

Results flagged for a closer look

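Bcl3 is listed for a closer look because its value after ansamitocin-P3 ran in opposite directions in the 2 genotypes, with a log2 change of 0.50 in WT and of -0.19 in GEF-H1-/- DCs. The values combine the libraries of a group, so it cannot be seen whether every library moved this way, and the difference was not tested. The propagated interval of the GEF-H1-/- change, -0.67 to 0.28, included 0.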

How the results depend on the processing

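Over 7 alternatives of pseudocount, filter and scale, the medians of the 10 genes in all 5 comparisons moved by less than the members' median interval half-width and had the same sign (9 genes with a filter of 5 FPKM, which drops Nfkbiz). The number of members past the threshold in WT DCs, 4, was 0 when columns were rescaled to a common sum, with or without small RNA genes, and 8 with a threshold of 0.5. In GEF-H1-/- DCs it was 0, but 3 with a threshold of 0.5 and 2 with non-overlapping intervals. Over all tested genes the counts were 563 in WT and 123 in GEF-H1-/- DCs. They were 956 and 212 with 0.1 FPKM added, 318 and 77 with 5 FPKM added, 2671 and 660 with a threshold of 0.5, and 1911 and 422 by non-overlapping intervals. Of 345 recomputed values of single members, 2 moved by more than their interval, both of Nfkbiz in WT DCs (1.32 with 0.1 and 0.36 with 5 FPKM added), 10 changed side of the threshold and 4, all of Nfkbia, differed in sign. The 345 include values under the alternative filters. A filter only chooses genes and leaves a member's own value as it was, so those values could not move. No paired analysis was possible because the deposited values combine the 2 libraries of each group, and for the same reason no library could be left out.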
